A study of Mus musculus with 51 samples.

Results

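The genes described here encode NF-kB transcription factor subunits, the proteins that restrain them and a kinase that releases them, measured in alveolar macrophages, phagocytes that live in the airspaces of the lung, after mice had inhaled spores of the mould Aspergillus fumigatus or had not. The 10 genes were Nfkb1, Nfkb2, Rela, Relb, Nfkbia, Nfkbie, Tnfaip3, Bcl3, Tank and Ikbkb, each taken through the array probe sets that the platform annotation gives its symbol. Of these, 9 genes were measured, through 16 probe sets, out of 12393 genes and 22626 tested probe sets on the array. Nfkb1 had no probe set of its symbol in the annotation used and was not analysed here. A gene with several probe sets was read through the one with the highest mean over all arrays.

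The 51 microarrays formed 15 groups. gp91phox-/- mice (KO), which lack Cybb, the catalytic subunit of the phagocyte NADPH oxidase, gave 21 arrays, 3 for each of 7 conditions. C57Bl/6 mice (WT) gave 30 arrays, 4 for each of the same 7 conditions and 2 for polystyrene beads, which were instilled in WT mice only among the arrays used here. The 7 conditions were untreated (0 h), mock instillation at 2 h and 4 h, and conidia (the spores) at the doses the labels write as e6 and e7, each at 2 h and 4 h. The labels give no unit for these doses, no number of beads, no age and no strain background for the KO, and they do not say how many mice were behind an array. Replicates are labelled biological, so the p-values measure the spread between arrays as labelled. For the WT 4 h mock arrays the titles name mock and the treatment field names conidia. The titles were followed.

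NF-kB dimers are held in the cytoplasm by inhibitor proteins of the IkB family. When Toll-like receptors, fungal lectin receptors or cytokine receptors fire, the IKK kinase complex marks these inhibitors for destruction, and the freed dimers enter the nucleus and switch on cytokine, chemokine and survival genes. Genes for the inhibitors themselves are among the targets, which closes a negative feedback loop, and in a separate, slower branch the product of Nfkb2 is trimmed to a subunit that pairs with Relb.

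Promoter sequences are shown for 4 genes whose signal changed in the comparisons below, marked for a loose form of the letters that NF-kB is known to bind. The sequences are the 250 bases upstream of the first start listed by RefSeq on build GRCm38.p6, read 5′ to 3′ on the gene's strand. Nfkbia lies on chr12:55492648-55492897 (minus strand), Nfkbie on chr17:45555450-45555699 (plus strand), Nfkb2 on chr19:46304487-46304736 (plus strand) and Tank on chr2:61592847-61593096 (plus strand). Capitals mark every match, on either strand and with overlaps joined, to the letters GGGNNNNNCC.
Nfkbia: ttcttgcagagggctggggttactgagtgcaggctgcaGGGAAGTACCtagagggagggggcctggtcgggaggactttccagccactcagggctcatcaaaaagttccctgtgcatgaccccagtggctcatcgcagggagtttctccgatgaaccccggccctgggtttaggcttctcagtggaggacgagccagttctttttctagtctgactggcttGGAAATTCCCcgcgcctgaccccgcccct
Nfkbie: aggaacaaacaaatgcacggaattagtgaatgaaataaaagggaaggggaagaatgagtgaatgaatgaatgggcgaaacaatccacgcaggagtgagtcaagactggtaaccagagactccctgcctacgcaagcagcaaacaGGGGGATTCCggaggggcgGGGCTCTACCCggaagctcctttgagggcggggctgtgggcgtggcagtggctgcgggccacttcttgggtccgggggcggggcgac
Nfkb2: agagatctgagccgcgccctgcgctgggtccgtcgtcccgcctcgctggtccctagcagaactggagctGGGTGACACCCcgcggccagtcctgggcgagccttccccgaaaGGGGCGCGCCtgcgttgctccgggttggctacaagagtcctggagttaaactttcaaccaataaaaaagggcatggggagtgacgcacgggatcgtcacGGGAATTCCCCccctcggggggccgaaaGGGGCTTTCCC
Tank: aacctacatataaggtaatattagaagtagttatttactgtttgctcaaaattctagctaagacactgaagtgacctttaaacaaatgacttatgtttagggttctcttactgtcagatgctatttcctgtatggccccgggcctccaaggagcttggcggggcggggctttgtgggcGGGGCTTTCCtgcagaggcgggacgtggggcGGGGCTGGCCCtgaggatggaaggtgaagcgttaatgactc
These letters were found in 45.8% of all 32851 promoters of this length and in the first promoter of all 7 measured genes that the RefSeq table holds, so on their own they single out little. The narrower GGGNNTTNCC was found in 4.11% of promoters and in 4 of these 7 genes (Nfkb2, Nfkbia, Tnfaip3 and Tank). In Nfkbia it lay 29 to 20 bases before the start and in Tank 72 to 63 bases before it. A match describes the sequence and does not show binding. Relb and Ikbkb have no entry in the table.

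The genotype labels were checked first. Cybb had log2 signals of 6.77 to 9.06 on the KO arrays, against 10.59 to 12.12 on the WT arrays of the same conditions, with no overlap (mean difference -2.75 ± 0.11 SE, adjusted p = 9.66e-22). All 11 measured alveolar macrophage markers lay above the 75th percentile of the array. Of 12 neutrophil markers 1 did, of 8 lung epithelium markers 2 did, and of 9 T and NK cell and 5 B cell markers none did. The mean log2 signal of the neutrophil markers was highest on WT 4 h mock array 3 (9.12), WT 4 h e6 array 4 (8.19) and WT 4 h e7 array 3 (7.62), and calls that end or begin without these 3 arrays, a choice made after the values were seen, are named below. T and NK cell markers averaged 3.42 to 5.65 on KO arrays, against 2.91 to 4.44 on WT arrays of the same conditions. Their part in the results was not tested. In such bulk samples, fewer cells of a type and less RNA per cell cannot be told apart.

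**Figure D1:**
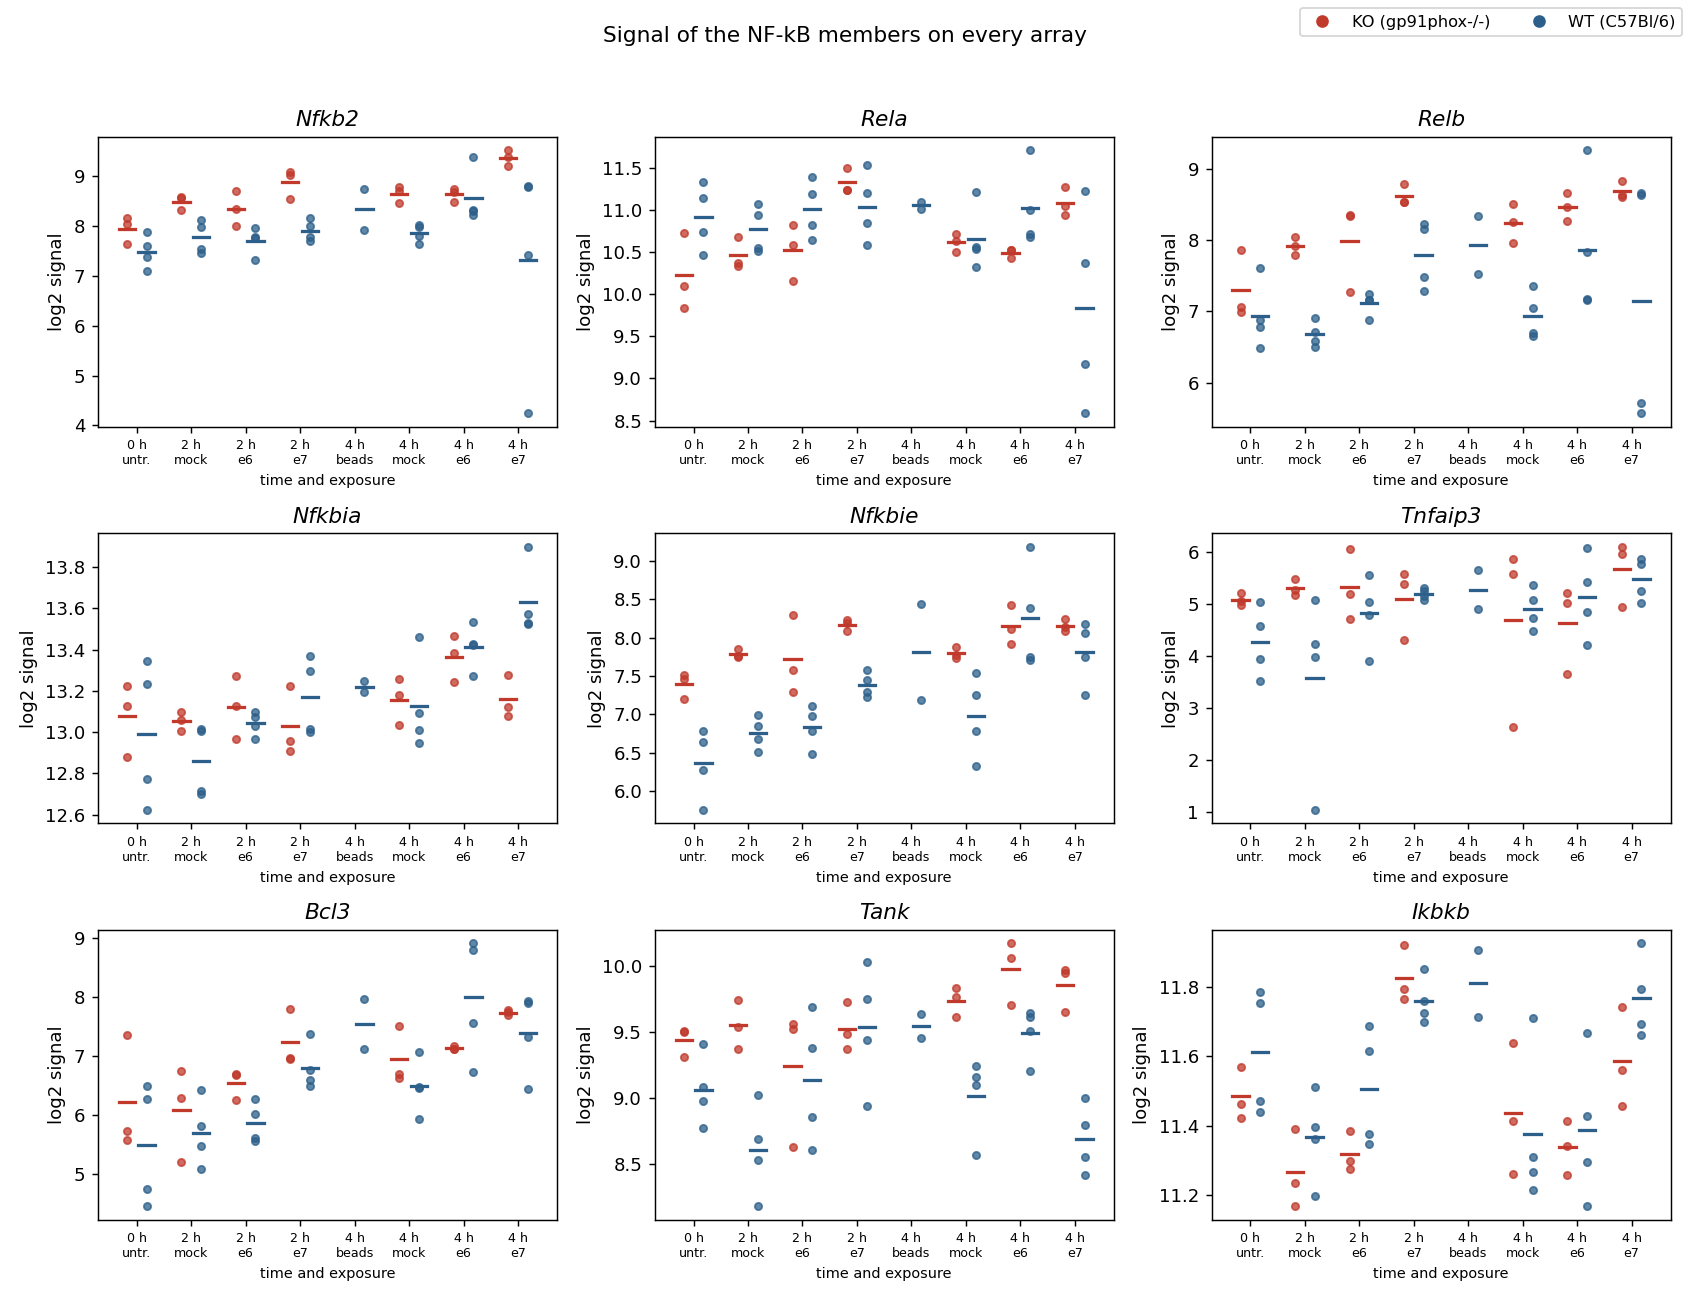
Log2 signal of each of the 9 measured genes on every array, by time and exposure, KO to the left of WT. Points are arrays and bars are group means. Relb, Nfkb2, Nfkbie and Tank ran higher in KO than in WT under most conditions, and the WT 4 h e7 arrays split apart for Relb, Nfkb2 and Rela.

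The broadest difference among these genes was between the genotypes. Averaged over the 7 conditions that both had, 4 of the 9 genes were higher in KO than in WT. They were Relb, the subunit of the slower branch, by 0.97 ± 0.19 on the log2 scale (1.95-fold, adjusted p = 0.000126), Nfkb2, its partner, by 0.82 ± 0.20 (1.76-fold, adjusted p = 0.00135), Nfkbie, which encodes the inhibitor IkB epsilon, by 0.68 ± 0.11 (1.61-fold, adjusted p = 9.16e-06), and Tank, a TRAF-binding adaptor that restrains NF-kB signalling, by 0.54 ± 0.09 (1.46-fold, adjusted p = 1.49e-05). Errors on differences are standard errors from limma, with the spread of each probe set pooled over all groups. A gene is called changed at an adjusted p under 0.05 over all tested probe sets. In this comparison 33.4% of all probe sets were called and 21.9% were called higher, so that 4 of 9 is to be read against a large background. The median over the 9 genes was 0.34, against 0.09 over all 12393 genes.

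Nfkbie separated the genotypes before any exposure. Untreated KO arrays had log2 signals of 7.51, 7.21 and 7.47, against 6.64, 5.76, 6.78 and 6.28 in untreated WT. All 3 KO arrays were above all 4 WT arrays, by 1.03 ± 0.30 on average, and the adjusted p was 0.0561, with 1.99% of probe sets called and 0 of the 9 genes. That p crossed the threshold when arrays were quantile normalized (1.07, adjusted p = 0.0271). In that comparison Nfkbie alone among the 9 genes had an unadjusted p under 0.05. The KO arrays also lay above all WT arrays for Nfkbie at 2 h after mock (7.76, 7.75 and 7.85 in KO, against 6.68, 6.85, 6.51 and 6.99 in WT), in 5 of the 7 conditions in all. The exceptions were the 4 h conidia groups, where WT Nfkbie was itself high. The share of all probe sets with such gaps between the genotypes was not counted, for Nfkbie or for the genes below.

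Relb read higher in KO than in WT after mock instillation, where the genotypes were not tested against each other. At 2 h it read 7.92, 8.04 and 7.79 in KO mock, against 6.91, 6.50, 6.71 and 6.59 in WT mock. At 4 h the values were 7.96, 8.51 and 8.25 in KO mock, against 6.65, 6.70, 7.04 and 7.36 in WT mock. No array overlapped at either time, but the share of all probe sets with such a gap was not counted. Over the 7 conditions the KO mean exceeded the WT mean by 0.36 (untreated) to 1.54 (4 h e7). The value at 4 h e7 was 1.01 without WT array 3, 1.06 without array 2 and 2.04 without array 1 or 4. Nfkb2 followed the same order, with 8.56, 8.33 and 8.59 in KO 2 h mock, against 7.98, 7.55, 7.46 and 8.13 in WT 2 h mock, and KO means higher by 0.08 (4 h e6) to 2.06 (4 h e7), or 1.04 at 4 h e7 without WT array 3. The other, dimmer Nfkb2 probe set gave 0.40 ± 0.17 for the 7-condition mean and did not pass the test (adjusted p = 0.0684). Through it the untreated mean was lower in KO (6.13) than in WT (6.86), and the KO mean was higher in the other conditions.

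Tank read 9.62, 9.84 and 9.76 in KO 4 h mock, against 9.24, 8.57, 9.16 and 9.10 in WT 4 h mock. The KO arrays were above all WT arrays in 4 of 7 conditions, and the conditions without a gap were untreated, 2 h e6 and 2 h e7. At 2 h e7 the means were the same to within 0.014, at 9.53 in KO and 9.54 in WT. The other 5 genes were not called in the 7-condition mean. The differences were -0.08 ± 0.13 for Rela, the main activating subunit, -0.04 ± 0.05 for Nfkbia, which encodes IkB alpha, 0.34 ± 0.24 for Tnfaip3, which encodes the ubiquitin-editing enzyme A20, 0.31 ± 0.18 for Bcl3, an atypical nuclear IkB protein, and -0.07 ± 0.05 for Ikbkb, the kinase subunit IKK beta. All 4 calls held when arrays were quantile normalized, at 0.56 to 0.93. Of all called probe sets 65.4% were higher in KO, and 43.3% after quantile normalization, which moved the median of all genes from 0.09 to -0.03.

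**Figure D2:**
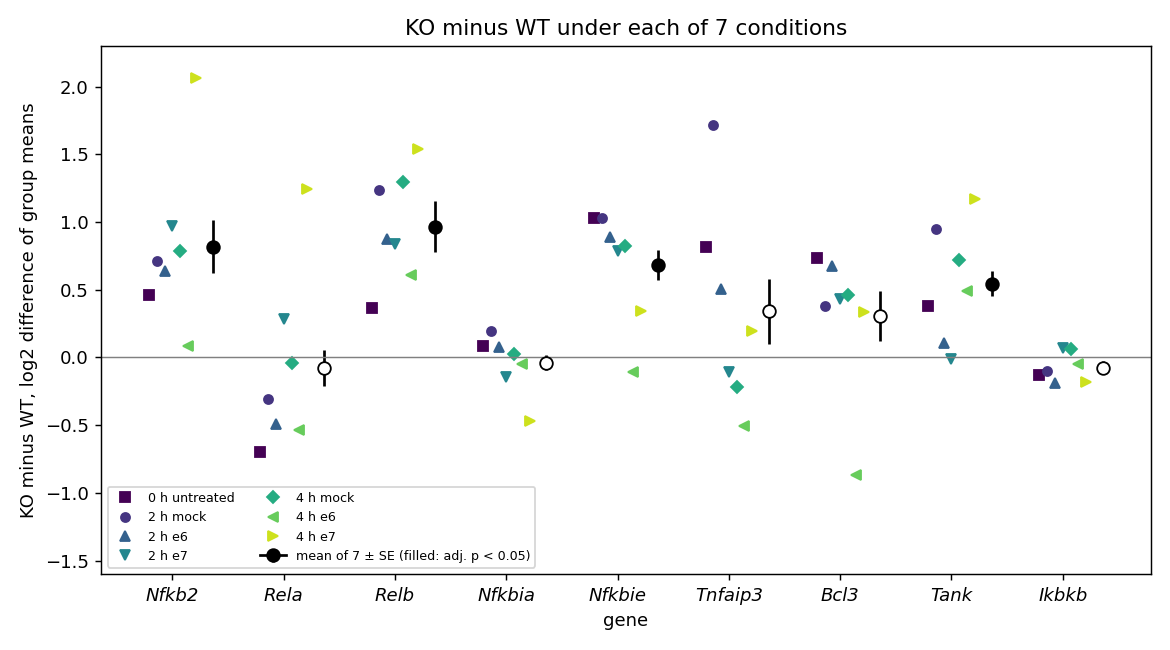
KO minus WT difference of mean log2 signal for each gene under each of the 7 shared conditions (small symbols) and their mean with its standard error (large circles, filled where adjusted p was under 0.05). All 7 symbols lie above 0 for Relb and for the main probe set of Nfkb2, and Rela, Nfkbia and Ikbkb scatter around 0.

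In WT macrophages at 4 h with e7 conidia, 3 of the 9 genes were called, all higher than mock: Nfkbie by 0.84 ± 0.27 (1.79-fold, adjusted p = 0.031), Nfkbia by 0.50 ± 0.13 (1.42-fold, adjusted p = 0.00824) and Ikbkb by 0.39 ± 0.12 (1.31-fold, adjusted p = 0.0172). Of all probe sets, 15.5% were called and 5.84% were called higher. The median over the 9 genes was 0.39, against -0.08 over all genes.

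Nfkbia stood near the top of the array (99th percentile) and its 4 e7 arrays read 13.57, 13.53, 13.90 and 13.52, against 12.95, 13.09, 13.46 and 13.01 for mock. No array overlapped, which held for 1 of the 9 genes and for 4.11% of all probe sets. Nfkbie read 8.07, 7.75, 7.26 and 8.18 with e7, against 6.78, 6.33, 7.54 and 7.26 with mock, and 3 of the 4 e7 arrays were above all mock arrays. Ikbkb read 11.93, 11.66, 11.79 and 11.69 with e7, against 11.21, 11.31, 11.27 and 11.71 with mock, where mock array 4 lay within the e7 range. Each call depended on single arrays. The Nfkbia call ended without e7 array 3 (0.41, adjusted p = 0.064). The Nfkbie call ended without e7 array 1, 2 or 4 or mock array 1 or 2 (adjusted p = 0.0654 to 0.165). The Ikbkb call ended without e7 array 1 or 3 or mock array 1, 2 or 3 (adjusted p = 0.0537 to 0.0692), after quantile normalization (0.33, adjusted p = 0.0857) and without the 3 arrays highest in neutrophil markers (0.35, adjusted p = 0.113).

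Each subunit gene read lower on e7 arrays 2 and 3 than on e7 arrays 1 and 4, and for Relb alone the values formed close pairs. Relb read 8.64 and 8.67 on e7 arrays 1 and 4, above every mock array, and 5.72 and 5.57 on e7 arrays 2 and 3, below every mock array (6.65, 6.70, 7.04 and 7.36). Nfkb2 read 8.78 and 8.81 on arrays 1 and 4 and 7.41 and 4.24 on arrays 2 and 3, against 7.64, 7.98, 8.02 and 7.81 for mock. Rela read 10.37 and 11.23 on arrays 1 and 4 and 9.18 and 8.59 on arrays 2 and 3, against 10.32, 10.54, 10.55 and 11.21 for mock. The group means average over both pairs, and the differences from mock were 0.21 ± 0.46 for Relb, -0.55 ± 0.48 for Nfkb2 and -0.82 ± 0.33 for Rela (adjusted p = 0.837, 0.515 and 0.0855). Rela passed, lower than mock, without e7 array 1 (-0.99, adjusted p = 0.0459) or 4 (-1.28, adjusted p = 0.00112), and with the dim probe sets left out (adjusted p = 0.0357). Without e7 arrays 2 and 3, a choice made after these values were seen, its difference was 0.14 (adjusted p = 0.906). For Nfkbie, the same omission left 1.15 (adjusted p = 0.0725), for Nfkbia 0.42 (adjusted p = 0.204) and for Ikbkb 0.44 (adjusted p = 0.125). The 3′/5′ log2 ratio of control transcripts, a measure of RNA quality, was 2.34 and 3.83 on e7 arrays 2 and 3 and 1.64 and 1.26 on e7 arrays 1 and 4, against 1.19 to 2.34 over the mock arrays. Within the e7 group it was higher on the pair with low Relb, Nfkb2 and Rela. On WT 4 h e6 array 4 it was 4.75, and that array had the highest Relb, Nfkb2 and Rela of the WT 4 h arrays. With the ratio as a covariate Rela differed from mock by -0.78 (adjusted p = 0.121), and Nfkbia, Nfkbie and Ikbkb stayed called. The cause of the split between the e7 arrays was not tested.

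**Figure D3:**
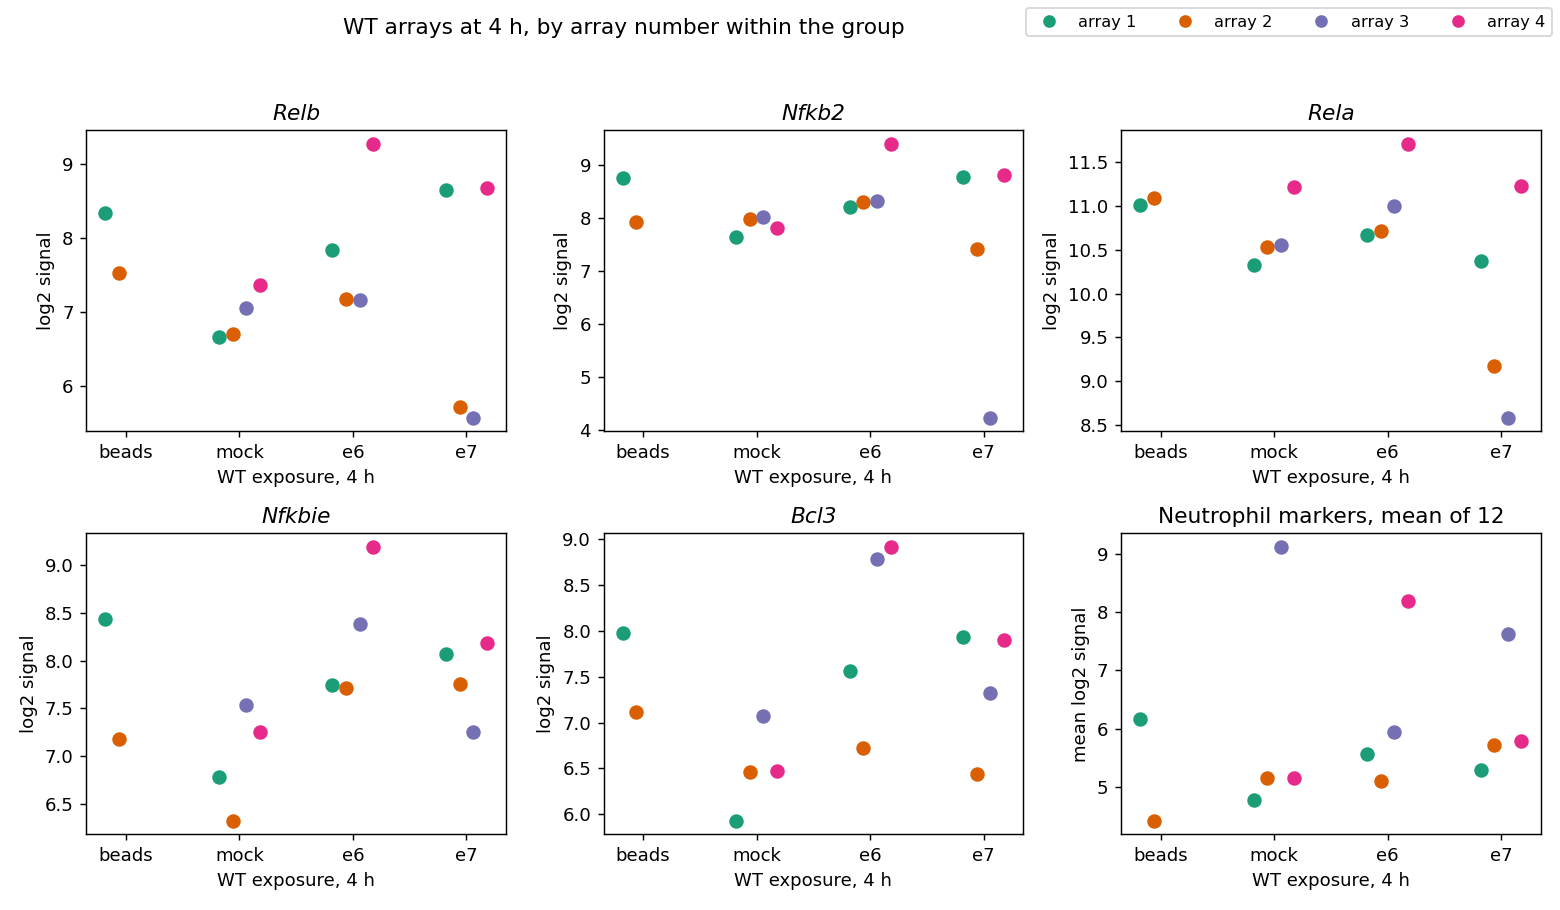
Log2 signal of Relb, Nfkb2, Rela, Nfkbie and Bcl3, and the mean of 12 neutrophil markers, on each WT array at 4 h. Colours give the array number within its group, and the labels do not say what arrays of the same number share. In the e7 column arrays 2 and 3 lie far below arrays 1 and 4 for Relb and Rela, and e6 array 4 is the highest of all for Relb, Nfkb2, Rela, Nfkbie and Bcl3.

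The lower dose called none of the 9 genes at 4 h in WT, although all 9 were above mock on average (0.00884% of probe sets called by limma, 4 of the 9 genes at an unadjusted p under 0.05). Nfkbie read 7.74, 7.71, 8.39 and 9.19 with e6, against 6.78, 6.33, 7.54 and 7.26 with mock, and every e6 array was above every mock array (1.28 ± 0.27, adjusted p = 0.113). Bcl3 read 7.56, 6.72, 8.79 and 8.91 with e6, against 5.93, 6.46, 7.07 and 6.48 with mock (1.51 ± 0.45, adjusted p = 0.551). Array 4 of e6 had the highest Nfkbie, Relb (9.26) and Nfkb2 (9.39) of any WT array and a high neutrophil marker mean. Nfkbie and Nfkb2 were the 2 genes whose e6 arrays all lay above all mock arrays, against 1.36% of probe sets. Without the 3 WT 4 h arrays highest in neutrophil markers, Nfkbie passed (1.16, adjusted p = 0.0335), as it did without mock array 3 alone (1.47, adjusted p = 0.0107).

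At 2 h the WT response to e7 was called for Tank alone. Tank read 9.44, 8.94, 10.03 and 9.75 with e7, against 8.69, 8.53, 8.17 and 9.02 with mock, and 3 of the 4 e7 arrays exceeded every mock array (0.94 ± 0.22, 1.92-fold, adjusted p = 0.0234). In this comparison 1.61% of probe sets were called and 0.844% were called higher. All 9 genes were above mock, with a median of 0.63, against -0.02 over all genes. Relb (7.48, 7.28, 8.22 and 8.16 with e7, against 6.91, 6.50, 6.71 and 6.59 with mock) was clear of mock on every array, as were Nfkbie, Bcl3 and Ikbkb, a pattern found in 5.1% of probe sets. None of these 4 passed the test (adjusted p = 0.0703 to 0.241). The e7 arrays had 3′/5′ log2 ratios of 2.09 to 4.85, against 0.93 to 1.47 for mock, and with that ratio as a covariate Tank was not called (1.02, adjusted p = 0.074). The call also ended without e7 array 1, 3 or 4 or mock array 2 or 3 (adjusted p = 0.0596 to 0.124).

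The e6 dose at 2 h in WT called none of the 9 genes and 0% of probe sets, with differences of -0.07 to 1.24 (2 genes at an unadjusted p under 0.05), and no gene had all e6 arrays above all mock arrays (1.33% of probe sets did). The largest value was that of Tnfaip3, whose single probe set was dim. Only 8 of its 51 values reached a signal of 50, and with signals under 50 set to 50 its WT 2 h differences from mock were 0. WT 2 h mock array 3 was the lowest of all arrays, at 1.03.

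In KO macrophages the response to conidia was called for 1 gene. Ikbkb read 11.76, 11.79 and 11.92 at 2 h with e7, against 11.17, 11.39 and 11.23 with mock, with no overlap (0.56 ± 0.14, 1.48-fold, adjusted p = 0.01). This comparison shifted as a whole. Its median over all genes was 0.23 and 0.02 after quantile normalization, 8.65% of probe sets were called and 6.11% were called higher, and 70.6% of the calls were higher, or 40.7% after quantile normalization. Ikbkb stayed called after that normalization (0.63, adjusted p = 0.00766) and was not called without e7 array 3 (0.51, adjusted p = 0.0534). Rela (11.49, 11.24 and 11.24 with e7, against 10.67, 10.37 and 10.33 with mock), Relb, Nfkbie and Bcl3 also had all e7 arrays above all mock arrays, 5 of 9 genes, against 26.6% of probe sets, and were not called. Nfkbia differed by -0.03 ± 0.15 through its main probe set.

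At 4 h KO macrophages had all 9 genes above mock with e7, by 0.003 (Nfkbia) to 0.98 (Tnfaip3, whose probe set was dim). The median over the 9 genes was 0.45, against -0.05 over all genes. Of the 9, 5 genes (Nfkb2, Rela, Relb, Nfkbie and Bcl3) had every e7 array above every mock array, against 7.21% of probe sets. Nfkb2 read 9.21, 9.39 and 9.53 with e7, against 8.70, 8.78 and 8.46 with mock (0.73 ± 0.55, adjusted p = 0.86). Rela read 10.93, 11.26 and 11.05 with e7, against 10.63, 10.72 and 10.50 with mock (0.47 ± 0.38, adjusted p = 0.87). These standard errors pool the spread within all groups, WT included. For Nfkb2 the SD was 0.16 over KO e7, 0.17 over KO mock and 2.15 over WT 4 h e7 arrays. For Rela it was 0.17, 0.11 and 1.19, and for Relb 0.12, 0.27 and 1.74. None of the 9 genes was called by limma, 0 of 9 had an unadjusted p under 0.05, and 0.00442% of all probe sets were called. None was called in any of 15 alternatives either, the fit on the compared groups alone included. With e6 the KO called none of the 9 genes at 2 h (0% of probe sets) or at 4 h (0.0796%), with 0 genes at an unadjusted p under 0.05 at either time. Nfkbie at 4 h was the one gene with all e6 arrays above all mock arrays (9.94% of probe sets at 4 h, 4.98% at 2 h).

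**Figure D4:**
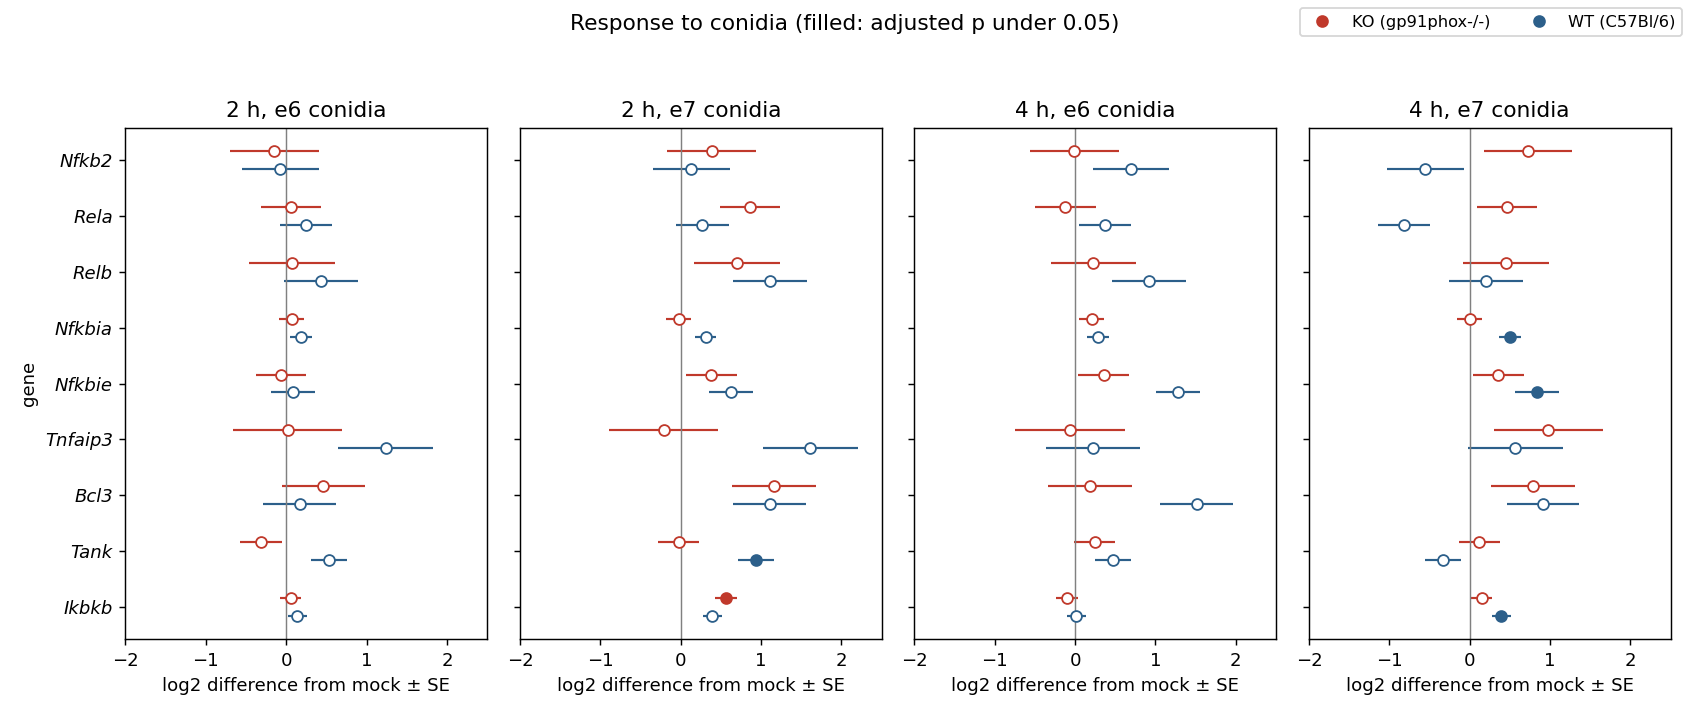
Log2 difference from mock (horizontal axis, ± standard error) for each gene with each dose and time, KO above WT. Filled points had an adjusted p under 0.05: Tank in WT and Ikbkb in KO at 2 h with e7, and Nfkbia, Nfkbie and Ikbkb in WT at 4 h with e7.

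The responses of the genotypes were compared directly. For none of the 9 genes did the KO response differ from the WT response at an adjusted p under 0.05, with 0% of probe sets called for e6 at 2 h, 1.45% for e7 at 2 h, 0.00442% for e6 at 4 h and 0.19% for e7 at 4 h. At an unadjusted p under 0.05 there were 1, 2, 1 and 2 genes. The KO response to e7 at 2 h was lower for Tank by 0.96 ± 0.34 (adjusted p = 0.143), with mock values of 9.54, 9.37 and 9.75 in KO, against 8.69, 8.53, 8.17 and 9.02 in WT. The median of all genes in that comparison was 0.20, and -0.01 after quantile normalization. At 4 h it was higher for Rela by 1.28 ± 0.50 (adjusted p = 0.173) and lower for Nfkbia by 0.50 ± 0.21 (adjusted p = 0.197). Without WT e7 array 4 the Rela difference was 1.75 (adjusted p = 0.00715), and without WT e7 arrays 2 and 3 it was 0.33 (adjusted p = 0.889). For e6 at 4 h all 9 differences were below 0, from -1.33 for Bcl3 to -0.08 for Nfkbia, with none called.

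Dose was compared within each genotype and time, e7 directly against e6, without the mock arrays. At 4 h in WT, 3 genes differed between e7 and e6. Rela was lower with e7 by 1.19 ± 0.33 (10.37, 9.18, 8.59 and 11.23 with e7, against 10.67, 10.72, 11.00 and 11.71 with e6; adjusted p = 0.00969), Tank was lower by 0.80 ± 0.22 (8.41, 8.79, 8.55 and 9.0, against 9.20, 9.61, 9.51 and 9.65; adjusted p = 0.0107) and Ikbkb was higher by 0.38 ± 0.12 (adjusted p = 0.0211). Of all probe sets 16.4% were called, 10% lower and 6.42% higher. Tank was below every e6 array on all 4 e7 arrays, unlike Relb, Nfkb2 and Rela. Without e7 arrays 2 and 3, Rela differed by -0.23 (adjusted p = 0.818), Tank by -0.79 (adjusted p = 0.156) and Ikbkb by 0.42 (adjusted p = 0.134). Without the 3 arrays highest in neutrophil markers, 2 of which are in this comparison, Rela differed by -0.54 (adjusted p = 0.334) and Tank by -0.70 (adjusted p = 0.0868). The Rela call also ended without e7 array 2 or 3 alone (adjusted p = 0.071 and 0.121), and the Ikbkb call without e6 array 1 or 3 or e7 array 1 or 3 (adjusted p = 0.0617 to 0.108).

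In KO at 2 h Ikbkb was higher with e7 than with e6, by 0.51 ± 0.14 (11.76, 11.79 and 11.92 with e7, against 11.28, 11.30 and 11.39 with e6; adjusted p = 0.0199), with 7.06% of probe sets called and 4.76% called higher. Of those calls 67.5% were higher, or 41.1% after quantile normalization, with a median of all genes of 0.18 and 0.00. The call ended without e6 array 1 or 2 or e7 array 3 (adjusted p = 0.0533 to 0.0891). None of the 9 genes differed between doses in WT at 2 h (0% of probe sets, 2 genes at an unadjusted p under 0.05) or in KO at 4 h (0.897%, 0 genes). The response to e7 differed between times for Tank in WT, by -1.27 ± 0.32 at 4 h relative to 2 h (adjusted p = 0.025, with 2.73% of probe sets called and 1.66% lower). Of those calls 39.1% were higher, or 50.3% after quantile normalization. Tank was 0.94 above mock at 2 h and 0.33 below mock at 4 h, and the value at 4 h alone was not called (adjusted p = 0.373). The call ended without WT 2 h e7 array 3 or 4, 2 h mock array 2 or 3, or 4 h e7 array 2 or 3 (adjusted p = 0.0513 to 0.0674), and without the 3 arrays highest in neutrophil markers (-1.17, adjusted p = 0.0977). In KO no gene differed between times (1.7% of probe sets called, 1 gene at an unadjusted p under 0.05), and Tank differed by 0.15 ± 0.37.

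With beads, on 2 arrays, all 9 genes were above WT 4 h mock, by 0.09 to 1.06 (8 of 9 after quantile normalization, which moved the median of all genes from 0.16 to 0.03), and none was called (1.14% of probe sets called, 2 genes at an unadjusted p under 0.05). Relb read 8.34 and 7.52 with beads, against 6.65, 6.70, 7.04 and 7.36 with mock. Both bead arrays were above all mock arrays for Relb, Bcl3, Tank and Ikbkb, against 15.6% of probe sets. The bead arrays had 3′/5′ log2 ratios of 4.11 and 5.32, against 1.19 to 2.34 for mock. With that ratio as a covariate the bead difference was 0.89 for Nfkbie and 0.29 for Ikbkb, with none called. No gene was called between conidia and beads, for e6 (0.327% of probe sets, 1 gene at an unadjusted p under 0.05) or for e7 (3.59%, 3 genes). Nfkbia was higher on every e7 array (13.52 to 13.90) than on both bead arrays (13.20 and 13.25), by 0.41 ± 0.16 (adjusted p = 0.144), and Tank was lower on every e7 array (8.41 to 9.0) than on both bead arrays (9.46 and 9.64), by 0.86 ± 0.27 (adjusted p = 0.067). Rela had the largest difference of the 9 genes, -1.21 ± 0.40 (10.37, 9.18, 8.59 and 11.23 with e7, against 11.01 and 11.09 with beads; adjusted p = 0.0766), which was -0.25 without e7 arrays 2 and 3 (adjusted p = 0.792) and -1.68 without e7 array 4 (adjusted p = 0.00131). With the 3′/5′ ratio as a covariate, Nfkbia (0.62, adjusted p = 0.017) and Tank (-0.97, adjusted p = 0.0415) were called.

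Mock instillation alone called none of the 9 genes against untreated animals, with 0.00442% of probe sets called at 2 h and 0.0133% at 4 h in WT and 0.00442% at 2 h and 1.2% at 4 h in KO. At an unadjusted p under 0.05 there were 2 and 3 genes in WT and 0 at both times in KO. In KO, Relb read 7.96, 8.51 and 8.25 at 4 h after mock, against 7.06, 6.99 and 7.87 untreated (0.93 ± 0.53, adjusted p = 0.415). In WT it read 6.65, 6.70, 7.04 and 7.36 at 4 h after mock, against 6.79, 6.49, 7.61 and 6.88 untreated (difference 0.00 ± 0.46).

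Nfkbia has 4 probe sets, and they did not always give the same answer. In WT at 4 h with e7, all 4 were above mock, by 0.50, 0.73, 0.73 and 0.59 in order of brightness, and the brightest and the dimmest were called. In KO at 2 h with e7, the main probe set differed by -0.03 ± 0.15 and the next brightest by 1.02 ± 0.31 (10.99 with e7, against 9.97 with mock on average, adjusted p = 0.0367). The remaining pair gave 0.14 ± 0.35 and 0.12 ± 0.22, so 1 of the 4 probe sets was called there. In KO at 4 h with e7 they gave 0.003, 0.83, 0.58 and -0.24, with none called. Ikbkb has 4 probe sets, of which the main one was by far the brightest. In the 4 h WT e7 comparison the dimmer ones gave 0.28, 0.78 and -0.26, none called.

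**Figure D5:**
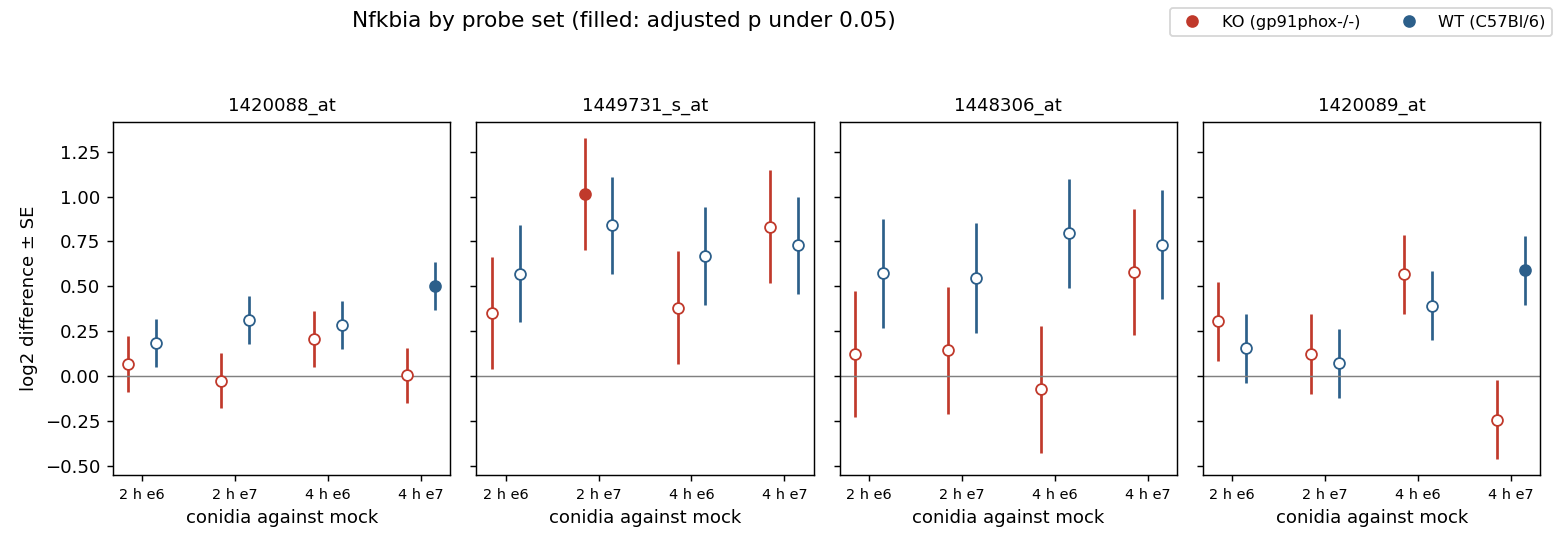
Log2 difference from mock (± standard error) of the 4 Nfkbia probe sets in each conidia group, KO to the left of WT. The left panel is the main probe set. Filled points had an adjusted p under 0.05, and the next brightest probe set, in the panel beside it, lies above 0 in all 8 comparisons.

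Across the 15 group means, Nfkb2 and Relb varied together (Pearson r = 0.90; 0.82 over the 51 arrays), as did Nfkbie and Bcl3 (0.86; 0.75) and Relb and Nfkbie (0.84; 0.72). Rela and Nfkbia ran in opposite directions (-0.43; -0.43). These describe points that share arrays, genotype and scaling, and carry no test. Among 6273 genes with a mean log2 signal of at least 7, those with the most similar 15 group means were Icam1, Clec4e and Slc41a2 for Nfkbie (r = 0.945, 0.928 and 0.927), Pim1, Nfkbiz and Socs3 for Nfkbia (0.926, 0.873 and 0.841), Ext1, Tnip1 and Rnf14 for Tank (0.89, 0.889 and 0.868) and Erp44, Kmt2e and Ankrd17 for Ikbkb (0.956, 0.93 and 0.93). Icam1 is an adhesion molecule, Clec4e a fungal lectin receptor, Nfkbiz an IkB family protein, Socs3 an inhibitor of cytokine signalling and Tnip1 a partner of A20.

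The rest of the pathway was read through 4 lists of other genes, of which 78 of 91 were measured. The lists were chosen with earlier results of these data known, so their counts beside the shares over all probe sets are no test. In WT at 4 h with e7, 20 were higher and 7 lower than mock (median 0.19, against -0.08 over all genes), where 15.5% of all probe sets were called and 5.84% were called higher. Target genes supplied 14 of the higher ones, of 32 measured, and none of the lower ones. They were led by the neutrophil-attracting chemokines Cxcl1 (4.48 ± 0.51, adjusted p = 4.09e-07) and Cxcl2 (3.95 ± 0.69, adjusted p = 0.000204), the cytokine Tnf (2.78 ± 0.35, adjusted p = 3.57e-06) and the chemokine Ccl3 (2.62 ± 0.63, adjusted p = 0.00391). Of 27 upstream signalling genes 5 were higher, led by Clec4e (1.46 ± 0.40) and the TNF receptor gene Tnfrsf1b (1.14 ± 0.21), and 4 were lower, Ltbr (-0.86 ± 0.30), Irak1 (-0.80 ± 0.26), Tradd (-0.56 ± 0.15) and the adaptor gene Myd88 (-0.52 ± 0.15). Of 12 other negative regulators 1 was higher, Zfp36 (1.0 ± 0.34), whose product speeds the decay of cytokine mRNA, and 3 were lower, Commd1, Pdlim2 and Sharpin (-0.96, -0.80 and -0.40). None of the 7 other kinases, subunits and IkB genes was called.

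The other comparisons called fewer genes of these lists. In WT at 2 h with e7, 7 of 78 were higher and none lower (1.61% of all probe sets called), and Cxcl2 (4.12 ± 0.69, adjusted p = 0.00135) and Cxcl1 (2.89 ± 0.51, adjusted p = 0.00226) led them. For Cxcl1, 1 of the 4 mock arrays reached a signal of 50 at 2 h and 2 of 4 at 4 h, so its differences in WT rest on dim mock values. In WT at 4 h with e6 (0.00884% of all probe sets called), 1 was higher, Tnf (2.34 ± 0.35, adjusted p = 0.00116). In KO at 2 h with e7 (8.65% called), 3 were higher, Cxcl1 (2.19 ± 0.58), the kinase gene Map3k7 (1.41 ± 0.23) and Tnfrsf1b (0.77 ± 0.24), with a list median of 0.15, against 0.23 over all genes. For KO against WT over the 7 conditions, 28 of 78 were higher and 8 lower, with 17 of the 32 target genes among the higher ones, where 33.4% of all probe sets were called and 21.9% were called higher. Of the 27 upstream genes 5 were higher and 7 lower. Some of the higher genes were dim. Csf2 and Tnfsf9 reached a signal of 50 on 0 of 21 KO and 0 of 28 WT arrays. Ccl5 reached it on 10 and 1, Saa3 on 11 and 2, Vcam1 on 12 and 5, and the upstream genes Cd40 on 11 and 4 and Traf1 on 8 and 0. The higher target genes also included the chemokine Ccl3 (1.38 ± 0.26) and the chemokine receptor-like gene Ccrl2 (1.37 ± 0.17). The kinase gene Ikbke and the cytokine subunit gene Il12b were also called higher (adjusted p = 2.35e-11 and 5.45e-10), and each reached a signal of 50 on 20 of 21 KO arrays and on 2 of 28 WT arrays, so the size of their differences is not given. In untreated animals (1.99% of all probe sets called) 7 were higher in KO and none lower, among them Ccl3 (9.51 in KO, against 5.75 in WT on average, where 2 of 4 WT arrays reached a signal of 50, adjusted p = 0.00091) and Clec4e (10.85 in KO, against 8.66 in WT, adjusted p = 0.00241).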

How the data were processed

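RNA of alveolar macrophages was hybridised to 51 one-colour Affymetrix arrays. The deposited table holds 1 intensity per probe set and array on a linear scale. The submitters' processing notes name GCOS and RMA, without version or role. Each array's trimmed mean, leaving out 2% at each end, was 500.183 to 500.241, so the values were already scaled, and no further normalization, filter or pseudocount was applied. Of 22690 probe sets, 64 controls were left out, and of the 22626 tested, 20380 had 1 symbol in the platform annotation, 691 several and 1555 none.

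Log2 intensities were modelled in R 4.3.3 (limma 3.58.1) as 15 group means over all arrays, for 27 comparisons, each with two-sided p-values adjusted by Benjamini-Hochberg over all tested probe sets. The procedure was tested on simulated data with normal noise, in which 200 of 22626 probe sets were changed. The measured data had 3512 calls for WT 4 h e7 and 1957 for KO 2 h e7 against mock. The simulated rates need not hold for them. For WT 4 h e7, KO 2 h e7 and beads against mock, 38%, 25% and 22% of simulated 2-fold changes were called. For simulated 4-fold changes it was 71%, 55% and 51%, and 7, 7 and 4 unchanged probe sets were called. A gene that was not called may therefore still have changed. The number of arrays, 2 to 4 a group, limits the precision. Members and gene lists were chosen with earlier results of these data known. All members are named, with the 3 nearest genes of each member called against mock. Up to 5 called genes a list and direction are named, besides those given as dim. Comparisons with the same mock group share its arrays. Levels of different probe sets were not compared. Alternatives were quantile normalization, a floor on signals, a filter on dim probe sets, array weights, a replicate block, the 3′/5′ ratio as a covariate, another variance model, fits on the compared groups only, the probe set with the next highest mean, and leaving out arrays.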

Additional observations from a re-analysis of the deposited data

Results flagged for a closer look

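Nfkb2 on WT 4 h e6 array 4 read 9.39 on the log2 scale, against 8.21 to 8.32 on the other 3 arrays of that group, a gap of 0.911 of the group's range. Nfkbia on WT 4 h e7 array 3 read 13.9, against 13.52 to 13.57 on the other 3 arrays, a gap of 0.861 of the range. Among 63 groups of 4 arrays examined in this way, 2 arrays stood apart, where chance gives about 1 in 20 groups, or 3.15. Both arrays are among the 3 WT 4 h arrays with the highest neutrophil markers, and the part of these in the values was not tested. The WT response of Tank to e7 conidia differed between times, by -1.267 at 4 h relative to 2 h (limma, adjusted p = 0.025), being above mock on average at 2 h and below it at 4 h.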

How the results depend on the processing

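Of 1086 recomputed values of single genes, 981 kept their direction and side of the threshold, 56 lost a call, 46 gained one and 3 reversed. The 4 genes called in the KO against WT mean stayed called in every alternative run that used the same probe sets. Among these genes only Nfkb2 has a second probe set, and through it Nfkb2 was not called. For Relb, Nfkbie and Tank a second probe set could not be tried. The reversals were Rela in WT 4 h e7 against mock, at 0.14 without e7 arrays 2 and 3, and Nfkb2 in WT 4 h e7 against e6, at 0.24 without those arrays and 0.058 without the 3 arrays highest in neutrophil markers. These omissions were chosen after seeing the data, and the cause was not tested.

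Of 530 recounts of called genes, 67 moved by over 1.5 times. WT 2 h e7 against mock (1) gave 2 with quantile normalization, the floor of 50, the filter, array weights, the replicate block or the trended robust variance, and 0 with the 3′/5′ covariate or only the groups compared. Untreated KO against WT (0) gave 1 with quantile normalization, the filter, the replicate block or the robust variance, and 2 with array weights. Beads against mock (0) gave 1 with the floor or block. WT e6 against beads (0) gave 1 with the floor, the block or without the neutrophil-high arrays, and e7 against beads (0) gave 2 with the floor, filter, block or covariate and 1 with the robust variance. With array weights, KO 2 h e7 gave 3 against mock and 2 against e6 (1 each), and both gave 0 with only the groups compared. WT 4 h e7 against mock (3) gave 0 with only the groups compared, and 1 with the next probe set or without e7 arrays 2 and 3. WT 4 h e7 against e6 (3) gave 0 with only the groups compared or without those arrays, and 1 without the neutrophil-high arrays. The WT time difference (1) gave 0 in all 3 of these fits. KO 2 h e7 against e6 gave 0 with the next probe set, and WT 4 h e6 against mock (0) gave 1 without the neutrophil-high arrays.

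Leaving out 1 array at a time gave 0 to 2 for WT 2 h e7 against mock, e7 against beads and the WT time difference, 1 to 3 for WT 4 h e7 against mock, 1 to 5 against e6, and 0 to 1 for beads against mock, e6 against beads, WT 4 h e6 against mock, KO 2 h e7 against mock or e6, and the genotype difference in the 4 h e7 response. Over all probe sets, the deviations of same-numbered arrays from their group means correlated by -0.042 to 0.0809 in 17 comparisons. Over the 10169 probe sets with a mean log2 signal of at least 7, a check added after seeing the data, 28 of 59 pairs were over 0.1 (-0.29 to 0.599) and in none of the 17 comparisons were all pairs. In WT the median was 0.134 for same-numbered and -0.05 for other arrays, in KO 0.0293 and -0.0029. Rela was higher on arrays 3 and 4 than on arrays 1 and 2 in 6 of the 7 WT groups of 4. The labels do not say what a number shares. Quantile normalization also moved the share of higher calls over all probe sets to 32.2% for beads against mock (48.6%), 74.9% for e6 (50%) and 58.9% for e7 (38.1%) against beads, 56.6% for KO 4 h mock against untreated (91.5%), 46.8% for the genotype difference in the 2 h e7 response (82%), 66.7% for KO 4 h e7 against e6 (36.9%) and 57.8% for the KO time difference (18.5%).

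With the replicate block, untreated Nfkbie differed by 1.11 (adjusted p = 0.0362) and Rela in WT 4 h e7 by -0.82 from mock (adjusted p = 0.0348) and -1.44 from beads (adjusted p = 0.00922).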
